A study of Mus musculus with 12 samples.

Results

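The genes described here are 10 members of the antioxidant and ferroptosis programme around NRF2. They are Nfe2l2, Nqo1, Hmox1, Gclc, Gclm, Slc7a11, Txnrd1, Srxn1, Gpx4 and Acsl4, found by gene symbol in a deposited table of whole read counts for 55421 Ensembl genes. All 10 passed the low-count filter that kept 18108 genes for testing. Messenger RNA was sequenced from MOC2, a mouse oral squamous carcinoma line, in 4 groups of 3 libraries. The line MOC2-25 is labelled EV-proficient and MOC2-27 EV-deficient, where EV stands for extracellular vesicle, a membrane particle shed by cells. The study made senescent cells with and without vesicle release to ask how their vesicles bear on inflammation. The block of release is described as genetic, and which gene was altered is not given in the labels used here. Each line was sampled under DMSO and, to induce senescence, after paclitaxel, which stabilises microtubules, at 600 nM over 48 h. All cells grew in a serum-containing medium supplemented with transferrin, insulin, hydrocortisone, cholera toxin, tri-iodo-thyronine and EGF. Only 1 line carries each EV label, so the block of vesicle release and other properties of the lines cannot be told apart.

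NRF2, the protein encoded by Nfe2l2, is a transcription factor held at a low level by KEAP1, which hands it to a ubiquitin ligase for degradation. When KEAP1 is modified by electrophiles or oxidants, NRF2 accumulates, pairs with a small MAF protein and binds antioxidant response elements near its target genes. Its control is therefore largely at the protein level, which RNA counts do not measure. Ferroptosis is an iron-dependent form of cell death driven by peroxidised membrane lipids. Cystine import and glutathione synthesis feed the enzyme GPX4, which reduces lipid peroxides, while ACSL4 supplies the polyunsaturated lipids that can be peroxidised.

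Library totals ran from 23263472 to 62955757 counts, and the lowest total was that of EV-proficient paclitaxel replicate 3. Levels are given as CPM, counts relative to library sizes scaled by the trimmed mean of M values. The labels do not say whether replicates were separate cultures, so the tests measure the spread between these libraries, which may be technical. The label of squamous carcinoma cells was checked with 8 epithelial markers. Of these, 6 were at 77.4 CPM or more in every library, while Krt5 and Trp63 were at most 0.171 and 0.180 CPM. The summed level of the 8 epithelial markers was 6513 to 7114 and 6551 to 7097 CPM in the DMSO groups and 4590.5 to 5089 and 3962 to 4134 CPM under paclitaxel. That of 5 fibroblast markers was 1.36 to 2.49 and 2.46 to 3.22 CPM, then 5.38 to 6.03 and 6.42 to 7.97 CPM. The summed level of 5 immune markers went from 6.61 to 9.71 CPM in DMSO libraries to 22.4 to 39.9 CPM under paclitaxel. Nearly all of it was Cd68, at up to 39.2 CPM, and Cd3e had at most 2 counts in any library. The part of these shifts in the members' changes was not tested. The table also holds a row for a dNGFR sequence added by the authors. It was high in EV-proficient DMSO (5.73 to 12.2 CPM) and EV-deficient paclitaxel libraries (9.63 to 12.4 CPM) and low in EV-proficient paclitaxel (2.47 to 3.76 CPM) and EV-deficient DMSO libraries (1.89 to 2.54 CPM). The second principal component of log2 CPM (16.4% of the variance) grouped the libraries the same way. It ran from 27.2 to 36.5 and 34.2 to 43.5 in the former groups and from -64.6 to -37.9 and -24.7 to -20.5 in the latter. The dNGFR row thus changed sides between treatments within each label. Directions between the EV labels, and paclitaxel effects within a label, therefore hold for the libraries as labelled, and whether the labels of 1 treatment were exchanged cannot be told from the data. The labels were kept. Values with the EV labels exchanged in the paclitaxel libraries, computed after the data were seen, are given beside the genes whose calls or directions they change. With that exchange the interaction described below was called for 1739 genes in place of 7370. The exchange turns the interaction into minus the sum of the EV-label differences under DMSO and under paclitaxel as labelled. The lower count thus follows from the same grouping of libraries and is not a separate observation. The average of the paclitaxel effects over both labels compares all 6 paclitaxel with all 6 DMSO libraries whatever their EV label. It was added after the data were seen and is given for each member, and for other genes where the exchange changes a call or direction.

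Under paclitaxel the NRF2 targets moved in opposite directions, and the transcript of NRF2 itself was not called. Hmox1, Gclm, Txnrd1 and Srxn1 fell in the cells of both EV labels, whereas Slc7a11 and Gclc rose in both. With the EV labels exchanged in the paclitaxel libraries these calls were made too, other than that of Gclc in the EV-deficient cells (-0.088 ± 0.061 SE, edgeR adjusted p 0.232). Nqo1 and Acsl4 moved in opposite directions in the cells of the 2 labels as given. With the exchange neither was called in either. Gpx4 was called higher in the EV-proficient cells, and its effects in the 2 labels were not called different (log2 -0.090, edgeR adjusted p 0.432). With the exchange Gpx4 was called in the EV-deficient (0.18 ± 0.060 SE, edgeR adjusted p 0.0153) and not in the EV-proficient cells (0.13 ± 0.060 SE, edgeR adjusted p 0.071), and Nfe2l2 was called in the EV-proficient cells (0.18 ± 0.060 SE, edgeR adjusted p 0.0128). In the EV-proficient cells 4 members were higher and 5 lower (edgeR quasi-likelihood test, adjusted p under 0.05 over all genes). In the EV-deficient cells 3 were higher and 5 lower. Most of the transcriptome responded as well. Of all genes tested, 58.2% passed in the EV-proficient cells (31.1% higher, 27.1% lower), and 62.9% in the EV-deficient cells (32.4% higher, 30.5% lower). Averaged over both labels, 3 members were higher and 4 lower, with 68.4% of all genes called (37.1% higher, 31.3% lower). DMSO and paclitaxel libraries did not overlap for 9 of 10 members in the cells of each label, as for 62.3% and 68.7% of all genes, and Nfe2l2 was the member that overlapped in both. In bulk RNA fewer cells of a kind and less RNA per cell cannot be told apart. The median log2 fold change of the members was -0.077 in the EV-proficient and -0.20 in the EV-deficient cells, beside 0.052 and 0.075 over all genes.

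**Figure D1:**
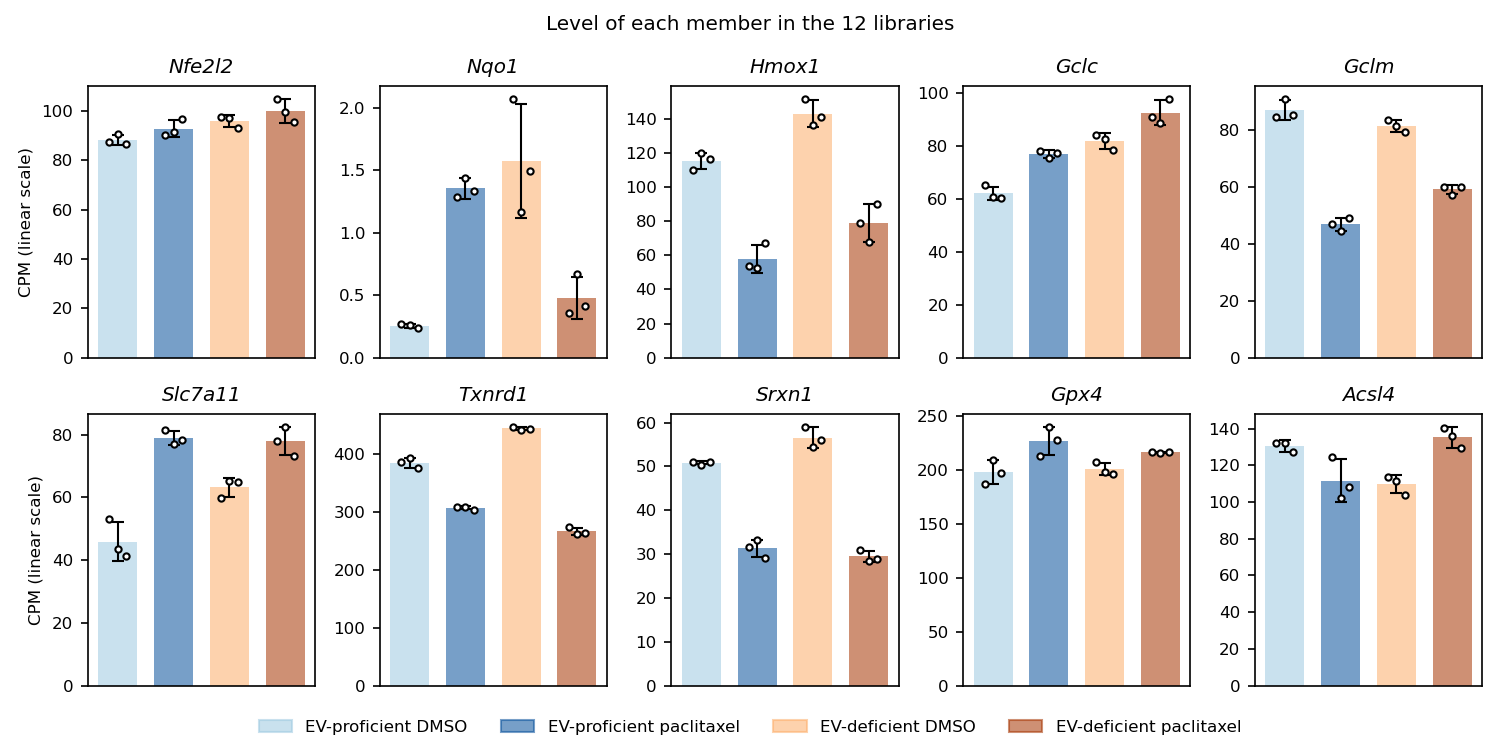
Level of each of the 10 genes in CPM on a linear scale, each panel with its own axis from 0. Bars are group means, error bars SD (n = 3) and circles the libraries. Hmox1, Gclm, Txnrd1 and Srxn1 lie lower in the paclitaxel groups, while Nqo1 reaches its highest means in EV-proficient paclitaxel (1.35 CPM) and EV-deficient DMSO (1.58 CPM).

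Positions beside the gene names below are those of the whole gene on build GRCm38. Levels can be compared between genes only per length, here as RPKM (CPM per kilobase of annotated exon). In EV-proficient DMSO libraries the order by mean RPKM was Gpx4 (115), Hmox1 (65.8), Txnrd1 (54.4), Acsl4 (24.2), Nfe2l2 (23.2), Srxn1 (18.03), Gclc (16.5), Gclm (13.8), Slc7a11 (3.30) and Nqo1 (0.164). The libraries of Acsl4 (23.5 to 24.5 RPKM) and Nfe2l2 (22.8 to 23.9 RPKM) overlapped in that order. Under paclitaxel in the same cells Txnrd1 (43.4 RPKM) stood above Hmox1 (33.0 RPKM). Slc7a11 has the longest annotated exon length of the set, 13922 bases, which lowers its RPKM.

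The promoters of a member that rose and of others that fell are shown with the matches found in them. Only the exact letters given below were searched, so a form of an element with other letters is not counted. Any difference between the promoters holds for these letters alone. RefSeq windows of build GRCm38.p6 were found for 8 of the 10 members, and Hmox1 and Gclc are not among them. The 250 bases before each start site were searched on both strands. The motifs were the antioxidant response element core TGACNNNGC, the AP-1 element TGANTCA and the amino acid response element TGATGNAA, of which the latter 2 were added after the sequences were seen. They occur in 10.2%, 6.75% and 3.45% of the 32851 windows of this length in the table. Slc7a11 holds the amino acid response element in both orientations, at bases -66 to -59 and -47 to -40 from the start. Srxn1 holds the AP-1 element at -102 to -96 and -45 to -39. Gclm holds the antioxidant core at -134 to -126 on the opposite strand, and 1 of 3 Txnrd1 windows at -92 to -84, also on the opposite strand. Nfe2l2 holds it at -240 to -232 on its own strand. No match overlapped a match of another motif. None of the 3 motifs, as spelled here, was found in these windows of Nqo1, Gpx4 (4 windows) or Acsl4. Bases further from the start sites were not searched, so elements lying there would not be seen. Matches are in capitals, each sequence reads 5′ to 3′ on the strand of its gene, and a match describes letters only.
Slc7a11 (chr3:50443614-50443863, minus strand): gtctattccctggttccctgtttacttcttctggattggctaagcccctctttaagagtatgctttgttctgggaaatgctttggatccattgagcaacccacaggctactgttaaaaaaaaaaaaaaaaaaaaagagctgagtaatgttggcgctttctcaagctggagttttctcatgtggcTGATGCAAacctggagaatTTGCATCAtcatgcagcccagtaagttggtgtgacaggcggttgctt
Srxn1 (chr2:152105274-152105523, plus strand): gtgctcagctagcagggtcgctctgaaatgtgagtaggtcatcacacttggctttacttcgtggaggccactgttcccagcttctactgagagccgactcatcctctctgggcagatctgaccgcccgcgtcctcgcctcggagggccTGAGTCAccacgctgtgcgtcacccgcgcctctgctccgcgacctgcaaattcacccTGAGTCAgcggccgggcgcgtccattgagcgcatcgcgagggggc
Gclm (chr3:122245307-122245556, plus strand): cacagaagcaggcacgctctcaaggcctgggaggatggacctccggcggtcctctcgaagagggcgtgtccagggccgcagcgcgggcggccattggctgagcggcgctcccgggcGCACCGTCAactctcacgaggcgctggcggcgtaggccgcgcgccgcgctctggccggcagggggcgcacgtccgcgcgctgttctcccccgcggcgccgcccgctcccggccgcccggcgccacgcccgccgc

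Nfe2l2 (ENSMUSG00000015839, chr2:75675513-75704641) was at 87.6, 90.6 and 86.5 CPM in EV-proficient DMSO libraries and 90.3, 91.4 and 96.8 CPM under paclitaxel. The EV-deficient libraries had 97.7, 97.0 and 93.1 CPM and 105, 99.6 and 95.3 CPM. The DMSO and paclitaxel libraries overlapped in the cells of both labels. Its log2 fold changes were 0.072 (95% interval -0.052 to 0.20) and 0.059 (-0.065 to 0.18), and neither was called. Upper-quartile scaling called it in the EV-deficient cells (0.24), but there it moved the median of all genes to 0.26. Between the EV labels its log2 differences were 0.12 ± 0.060 SE under DMSO and 0.11 ± 0.059 SE under paclitaxel, not called. The averaged paclitaxel effect was not called either (log2 0.065 ± 0.042 SE, edgeR adjusted p 0.175). The filter of 1 CPM in 3 libraries (0.10) and upper-quartile scaling (0.19, at a median of all genes of 0.19) did call it. With the EV labels exchanged in the paclitaxel libraries Nfe2l2 was called in the EV-proficient cells (0.18) and turned sign, not called, in the EV-deficient cells (-0.049).

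The targets that fell are described next, beginning with haem oxygenase. Hmox1 (ENSMUSG00000005413, chr8:75093621-75100589), which degrades haem to biliverdin, carbon monoxide and iron, was at 110.0, 119.6 and 116 CPM in EV-proficient DMSO libraries and 54.0, 52.5 and 67.1 CPM under paclitaxel. With the EV-deficient label it went from 152, 136 and 141 CPM to 78.6, 67.9 and 89.8 CPM. Every paclitaxel library lay below every DMSO library, and the fall was 2.00-fold (log2 -1.001 ± 0.094 SE, edgeR adjusted p 8.05e-09) and 1.81-fold (log2 -0.86 ± 0.092 SE, edgeR adjusted p 4.38e-08). The difference of these effects was 0.14 (95% interval -0.13 to 0.41) and was not called. It was called without EV-deficient paclitaxel replicate 2 (0.29) and, with the sign turned, with the EV labels exchanged in the paclitaxel libraries (-0.76). Averaged over the labels Hmox1 fell by 0.93 ± 0.066 SE, edgeR adjusted p 4.37e-11.

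Srxn1 (ENSMUSG00000032802, chr2:152105516-152111376) encodes sulfiredoxin, which restores overoxidised peroxiredoxins. It was at 51.1, 50.4 and 51.0 CPM in EV-proficient DMSO libraries and 31.6, 33.1 and 29.2 CPM under paclitaxel, and at 59.1, 54.3 and 56.1 CPM and 31.0, 28.5 and 28.9 CPM in the EV-deficient cells. The groups did not overlap in either line. Its log2 fold changes were -0.69 ± 0.070 SE, edgeR adjusted p 2.39e-08 and -0.94 ± 0.069 SE, edgeR adjusted p 1.36e-10. The difference of the effects, log2 -0.24 ± 0.098 SE, edgeR adjusted p 0.0515, just missed the threshold. Limma-voom (-0.26), a fit without the low-count filter (-0.31) and a fit without EV-proficient paclitaxel replicate 3 (-0.26) called it. Averaged over the labels Srxn1 fell by 0.82 ± 0.049 SE, edgeR adjusted p 3.27e-12.

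Txnrd1 (ENSMUSG00000020250, chr10:82833951-82897712), the cytosolic thioredoxin reductase and a selenoprotein, had the highest counts of the set. It was at 387, 393 and 376 CPM in EV-proficient DMSO and 309, 308 and 304 CPM in EV-proficient paclitaxel libraries. Its EV-deficient values went from 448, 442 and 445 CPM to 274, 262 and 264 CPM, so the DMSO libraries began higher and the paclitaxel libraries ended lower. The change was log2 -0.33 ± 0.052 SE, edgeR adjusted p 1.29e-05 in the EV-proficient and log2 -0.74 ± 0.052 SE, edgeR adjusted p 6.1e-11 in the EV-deficient cells. As labelled the effects differed (log2 -0.41 ± 0.073 SE, edgeR adjusted p 9.69e-05), but with the EV labels exchanged in the paclitaxel libraries the difference was -0.0023 ± 0.073 SE, edgeR adjusted p 0.991. Their average was log2 -0.53 ± 0.036 SE, edgeR adjusted p 2.72e-11. Eid3, on the same strand, overlaps the annotated span of Txnrd1 and had at most 106 counts in a library.

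Glutamate-cysteine ligase makes the first and rate-limiting step of glutathione synthesis, and its subunits went opposite ways as labelled and in the average over labels. Gclm (ENSMUSG00000028124, chr3:122245557-122270732), the modifier subunit, was at 84.6, 90.9 and 85.1 CPM in EV-proficient DMSO libraries and 47.1, 44.4 and 49.0 CPM under paclitaxel. Gclm in EV-deficient libraries was at 83.6, 81.4 and 79.2 CPM and 60.2, 57.3 and 59.9 CPM. Each paclitaxel library lay below the DMSO libraries, and the log2 fold changes were -0.89 ± 0.063 SE, edgeR adjusted p 1.12e-10 and -0.46 ± 0.062 SE, edgeR adjusted p 1.12e-06. The fall was smaller in the cells labelled EV-deficient (difference log2 0.43 ± 0.088 SE, edgeR adjusted p 0.00041), but with the exchange of EV labels the difference was -0.24 ± 0.088 SE, edgeR adjusted p 0.0843. The average was log2 -0.68 ± 0.044 SE, edgeR adjusted p 1.15e-11. The gene Gm17494 overlaps Gclm on the other strand, with at most 124 counts in a library. Gclc (ENSMUSG00000032350, chr9:77754535-77794485), the catalytic subunit, was at 65.2, 60.9 and 60.6 CPM and then 78.2, 75.5 and 77.5 CPM in the EV-proficient cells. Its values in EV-deficient libraries were 84.4, 82.6 and 78.7 CPM and 91.2, 88.8 and 97.9 CPM. It rose by log2 0.31 ± 0.062 SE, edgeR adjusted p 0.00021 and by log2 0.18 ± 0.061 SE, edgeR adjusted p 0.0153. The averaged rise was log2 0.24 ± 0.044 SE, edgeR adjusted p 4.11e-05. With the EV labels exchanged in the paclitaxel libraries Gclc in the EV-deficient cells was at -0.088 ± 0.061 SE, edgeR adjusted p 0.232. Neither its call nor its direction there was kept. The call in the EV-deficient cells was lost without the low-count filter (0.14) and in 3 of the 12 fits that left out 1 library: EV-deficient DMSO replicate 2 (0.17), EV-deficient DMSO replicate 3 (0.13) and EV-deficient paclitaxel replicate 3 (0.13).

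The balance of the subunits was also read within each library, where scaling cancels. The Gclc to Gclm ratio of CPM was 0.770, 0.670 and 0.711 in EV-proficient DMSO libraries and 1.66, 1.70 and 1.58 under paclitaxel. EV-deficient libraries had ratios of 1.01, 1.02 and 0.994 and then 1.52, 1.55 and 1.63. All 6 paclitaxel libraries lay above all 6 DMSO libraries. The ratio was 1.89-fold higher under paclitaxel on average. Per length, the geometric mean ratio went from 1.196 to 2.75 and from 1.68 to 2.62. This ratio and that of Acsl4 to Gpx4 were chosen after the values of the genes were seen, so no test is given.

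**Figure D2:**
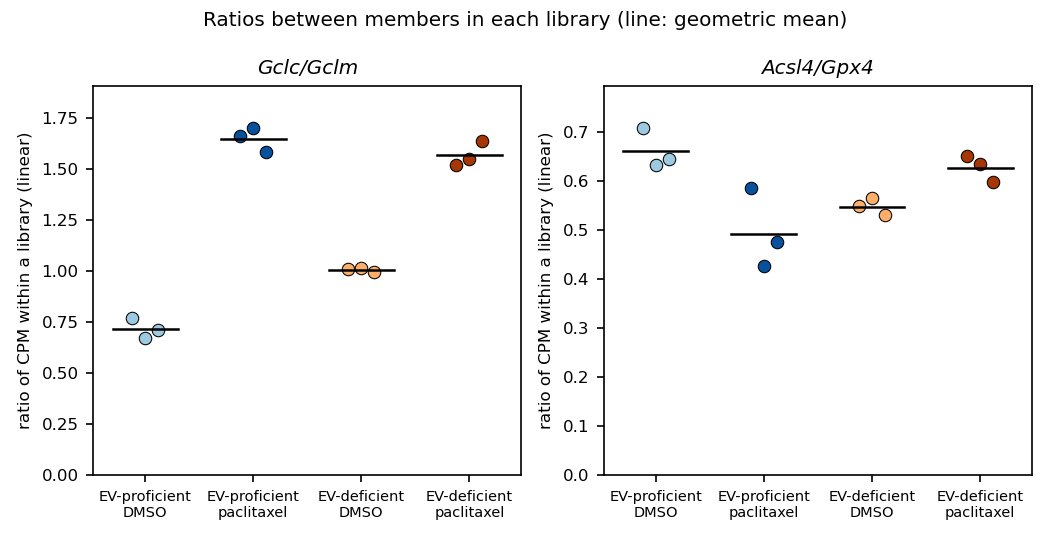
Ratio of CPM between members within each library, on linear axes from 0, with circles for libraries and lines for geometric means. The Gclc to Gclm ratio is at 1.02 or lower in every DMSO library and at 1.52 or higher in every paclitaxel library. The geometric mean of the Acsl4 to Gpx4 ratio falls in the EV-proficient and rises in the EV-deficient cells as labelled. It falls in both, with overlapping libraries, if the EV labels of the paclitaxel libraries are exchanged.

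Slc7a11 (ENSMUSG00000027737, chr3:49892526-50443614), the cystine-importing subunit of the transporter xCT, rose in the cells of both labels. It was at 53.0, 43.6 and 41.2 CPM in EV-proficient DMSO libraries and 81.4, 76.9 and 78.4 CPM under paclitaxel. EV-deficient libraries of Slc7a11 went from 59.8, 65.1 and 64.8 CPM to 78.1, 82.5 and 73.3 CPM. Paclitaxel libraries of both labels overlapped (log2 difference 95% interval -0.18 to 0.15), from DMSO levels that did not. The rise was log2 0.78 ± 0.081 SE, edgeR adjusted p 3.54e-08 in the EV-proficient and log2 0.30 ± 0.079 SE, edgeR adjusted p 0.00218 in the EV-deficient cells. As labelled it was smaller in the latter (difference log2 -0.48 ± 0.11 SE, edgeR adjusted p 0.00165). With the EV labels exchanged in the paclitaxel libraries the difference was -0.44 ± 0.11 SE, edgeR adjusted p 0.017, and exchanging the DMSO libraries instead turns its sign. The averaged rise was log2 0.54 ± 0.057 SE, edgeR adjusted p 2.28e-08. Slc3a2, which encodes the heavy chain that carries xCT to the membrane, fell instead. It went from 347 ± 15.3 to 251 ± 9.93 CPM (SD, n = 3) in the EV-proficient cells (log2 -0.47 ± 0.056 SE, edgeR adjusted p 3.02e-07). The EV-deficient means went from 345 ± 7.23 to 221 ± 5.85 CPM (SD, n = 3; log2 -0.64 ± 0.056 SE, edgeR adjusted p 1.97e-09). This heavy chain also serves other amino acid transporters.

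Nqo1 (ENSMUSG00000003849, chr8:107388225-107403206), the quinone reductase commonly read as a marker of NRF2 activity, was the rarest member and the one with the widest changes. It had 11, 11 and 8 counts in EV-proficient DMSO libraries and 65, 82 and 33 counts under paclitaxel, or 0.268, 0.263 and 0.234 CPM and 1.28, 1.44 and 1.34 CPM. In the EV-deficient cells it had 116, 56 and 68 counts and then 19, 31 and 25 counts, or 2.07, 1.17 and 1.49 CPM and 0.354, 0.671 and 0.410 CPM. The libraries of EV-proficient paclitaxel and EV-deficient DMSO were high and overlapped each other, and those of the other groups were low. This is the reverse of the dNGFR row, and its part in the result was not tested. Nqo1 was 5.25-fold higher under paclitaxel in the EV-proficient cells (log2 2.39 ± 0.37 SE, edgeR adjusted p 1.06e-05) and 3.32-fold lower in the EV-deficient cells (log2 -1.73 ± 0.33 SE, edgeR adjusted p 0.000111). The difference of the effects as labelled was log2 -4.12 ± 0.50 SE, edgeR adjusted p 9.48e-07. With the EV labels exchanged in the paclitaxel libraries it was -1.10 ± 0.50 SE, edgeR adjusted p 0.175, and the effects were 0.88 ± 0.39 SE, edgeR adjusted p 0.0552 and -0.22 ± 0.31 SE, edgeR adjusted p 0.571. The averaged effect was not called (log2 0.33 ± 0.25 SE, edgeR adjusted p 0.248).

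Gpx4 (ENSMUSG00000075706, chr10:80047166-80056439), the selenoprotein that reduces lipid peroxides, was at 187, 209 and 197 CPM in EV-proficient DMSO libraries and 213, 239 and 228 CPM under paclitaxel. Gpx4 in the EV-deficient cells was at 207, 198 and 196 CPM and 216, 215 and 216 CPM. The paclitaxel libraries lay just above the DMSO libraries in each line. The change was log2 0.20 ± 0.060 SE, edgeR adjusted p 0.00749 in the EV-proficient cells, a call lost without EV-proficient DMSO replicate 1 (0.16), EV-proficient paclitaxel replicate 2 (0.10) or EV-proficient paclitaxel replicate 3 (0.16). It was 0.11 (95% interval -0.017 to 0.23) and not called in the EV-deficient cells. There, a filter of 1 CPM in 3 libraries (0.17) and upper-quartile scaling (0.29) called it. Averaged over both labels it rose (log2 0.15 ± 0.042 SE, edgeR adjusted p 0.00315).

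Acsl4 (ENSMUSG00000031278, chrX:142317993-142390535), which loads polyunsaturated fatty acids onto coenzyme A for membrane lipids, was at 132, 132 and 127 CPM in EV-proficient DMSO libraries and 125, 102 and 108 CPM under paclitaxel. Acsl4 in the EV-deficient cells was at 114, 112 and 104 CPM and 141, 136 and 129 CPM. Under paclitaxel Acsl4 fell in EV-proficient cells (log2 -0.23 ± 0.069 SE, edgeR adjusted p 0.00814) and rose in the EV-deficient cells (log2 0.30 ± 0.069 SE, edgeR adjusted p 0.000649), with no overlap in either. The higher groups of each pair are those in which the dNGFR row was high, and its part in the result was not tested. As labelled the effects differed (log2 0.53 ± 0.098 SE, edgeR adjusted p 0.000165). With the exchange they were 0.052 ± 0.069 SE, edgeR adjusted p 0.532 and 0.024 ± 0.069 SE, edgeR adjusted p 0.784, and their difference was -0.027 ± 0.098 SE, edgeR adjusted p 0.898. The averaged effect, 0.038 (95% interval -0.064 to 0.14), was not called. The Acsl4 to Gpx4 ratio of CPM went from 0.709, 0.633 and 0.645 to 0.585, 0.427 and 0.475 in the EV-proficient cells. It went from 0.549, 0.564 and 0.530 to 0.650, 0.634 and 0.597 in the EV-deficient cells. Averaged over both, its log2 change was -0.12. With the EV labels exchanged in the paclitaxel libraries its geometric mean was lower under paclitaxel in both, but DMSO and paclitaxel libraries then overlapped in both.

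**Figure D3:**
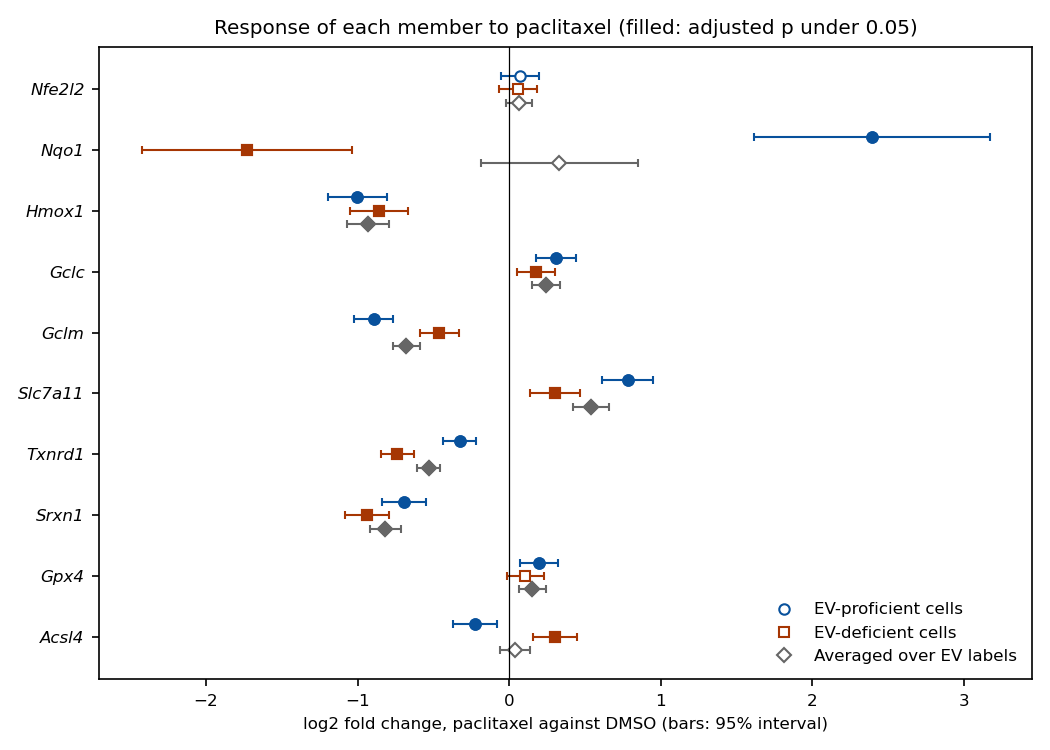
Log2 fold change of each gene under paclitaxel against DMSO in the EV-proficient cells (circles), the EV-deficient cells (squares) and averaged (diamonds). Bars are 95% intervals and filled symbols have an adjusted p under 0.05. Nqo1 and Acsl4 have symbols on both sides of 0, while Hmox1, Gclm, Txnrd1 and Srxn1 lie below 0 throughout.

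Whether the paclitaxel response depended on the EV label was tested as the interaction, the effect in EV-deficient minus that in EV-proficient cells. It passed for 5 of the 10 members, 2 positive (Gclm and Acsl4) and 3 negative (Nqo1, Slc7a11 and Txnrd1), while 40.7% of all genes passed (16.9% positive, 23.8% negative). With the EV labels exchanged in the paclitaxel libraries 9.60% of all genes passed, and 3 members did: Hmox1 (-0.76 ± 0.13 SE, edgeR adjusted p 0.000922), Gclc (-0.66 ± 0.087 SE, edgeR adjusted p 7.77e-05) and Slc7a11. Exchanging the DMSO libraries instead turns the sign of each of these differences. Between the EV labels under DMSO, 5 members were higher and 1 lower with the EV-deficient label, against 23.0% of all genes called (12.4% higher, 10.6% lower). The libraries of the 2 labels did not overlap for 9 members, as for 43.3% of all genes. The higher members were Nqo1 (log2 2.61 ± 0.37 SE), Slc7a11 (log2 0.46 ± 0.081 SE), Gclc (log2 0.40 ± 0.062 SE), Hmox1 (log2 0.31 ± 0.091 SE) and Txnrd1 (log2 0.21 ± 0.051 SE). The lower one was Acsl4 (log2 -0.25 ± 0.069 SE). The edgeR adjusted p of these differences was at most 0.0164, that of Hmox1. The Hmox1 call was lost without EV-proficient DMSO replicate 1 (0.28) or EV-deficient DMSO replicate 1 (0.27), and that of Acsl4 without EV-deficient DMSO replicate 3 (-0.21). A fit of the DMSO groups alone also called Gclm (-0.13).

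Under paclitaxel, 4 members were higher and 2 lower with the EV-deficient label, against 37.8% of all genes called (16.0% higher, 21.8% lower). The libraries did not overlap for 6 members, as for 44.1% of all genes. Hmox1 (log2 0.45 ± 0.093 SE), Gclm (log2 0.34 ± 0.063 SE), Acsl4 (log2 0.28 ± 0.069 SE) and Gclc (log2 0.27 ± 0.061 SE) were higher. Nqo1 (log2 -1.51 ± 0.34 SE) and Txnrd1 (log2 -0.20 ± 0.052 SE) were lower, with an edgeR adjusted p of at most 0.00332 among these 6. The Txnrd1 call was lost under upper-quartile scaling (-0.11) and in a fit of the paclitaxel groups alone (-0.18). The 2 comparisons share no library. Hmox1 and Gclc were higher in the EV-deficient libraries under both treatments. Nqo1, Txnrd1 and Acsl4 were called under both with opposite signs. These are statements as labelled, since exchanging the EV labels in the paclitaxel libraries turns the sign of each difference under paclitaxel.

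**Figure D4:**
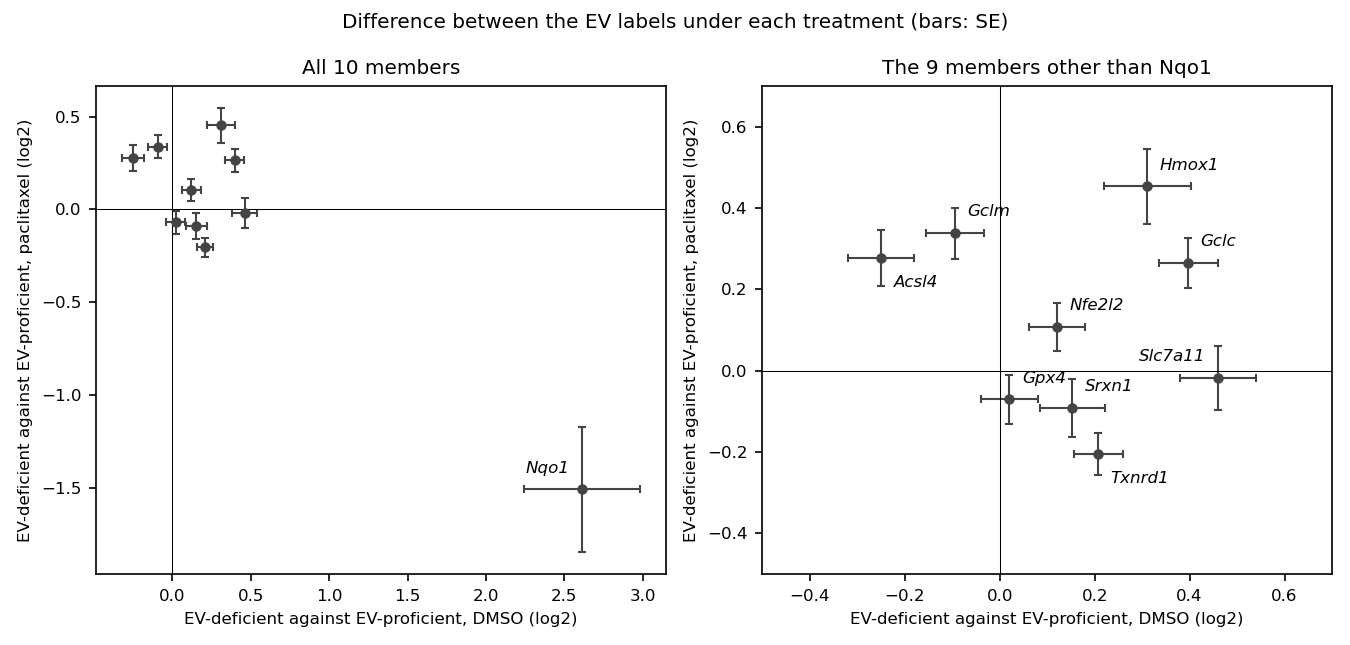
Log2 difference between EV-deficient and EV-proficient libraries under DMSO (horizontal) and under paclitaxel (vertical) with SE bars, for all 10 genes at left and for the 9 other than Nqo1 at right. Hmox1, Gclc and Nfe2l2 (not called) lie in the upper right part, Nqo1 at 2.61 and -1.51.

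The pathway around the members was read from 5 lists of other genes, 100 in all, of which 95 were tested. Beside the list counts stand the shares of all genes: 31.1% higher and 27.1% lower in the EV-proficient cells, and 32.4% and 30.5% in the EV-deficient cells. Called genes were thus common in either direction, and no test of the lists was made. Effects within a label are as labelled, and values with the exchange are those with the EV labels exchanged in the paclitaxel libraries, EV-proficient first. Among genes that control NRF2, 5 of 12 tested were higher and 3 lower in the EV-proficient cells and 5 of 12 tested were higher and 3 lower in the EV-deficient cells. Keap1, which targets NRF2 for degradation, fell in both (log2 -0.52 ± 0.083 SE and -0.40 ± 0.081 SE). Mafk, a small MAF partner, fell in the EV-proficient cells (log2 -0.91 ± 0.063 SE) and was at -0.11 ± 0.062 SE (not called) in the EV-deficient cells, while with the exchange it fell in both (-0.48 and -0.53) and the average was -0.51. Mafg, another small MAF, rose in the former (log2 0.32 ± 0.066 SE) and fell in the latter (-0.29 ± 0.065 SE), but with the exchange its values were -0.021 (not called) and 0.050 (not called), and the average was 0.015 (not called). The ligase adaptor Btrc rose in both (log2 0.45 ± 0.079 SE and 0.18 ± 0.078 SE). Bach1, a repressor that competes with NRF2 at Hmox1, rose in both (log2 0.24 ± 0.079 SE and 0.53 ± 0.077 SE). The kinase gene Gsk3b rose in the EV-deficient cells (log2 0.33 ± 0.065 SE) and was at 0.14 ± 0.066 SE (not called) in the EV-proficient cells, while with the exchange it rose in both (0.28 and 0.19, average 0.24). Rbx1, of the ligase, fell in both (-0.35 ± 0.071 SE and -0.36 ± 0.071 SE).

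Of the other NRF2 targets in the EV-proficient cells, 13 of 30 tested were higher and 12 lower (median log2 0.044), and in the EV-deficient cells 17 of 30 tested were higher and 8 lower (median 0.27). The microsomal glutathione transferase Mgst1 rose from 1.14 ± 0.0384 to 8.86 ± 0.825 CPM and from 0.525 ± 0.126 to 16.5 ± 4.89 CPM (SD, n = 3 each; log2 2.95 ± 0.21 SE and 4.96 ± 0.23 SE). The cytosolic transferase Gstm1 (log2 1.55 ± 0.11 SE and 2.17 ± 0.11 SE) and the oxidase Aox1 (0.92 ± 0.21 SE and 2.21 ± 0.21 SE) also rose in both. Pgd, an NADPH-producing enzyme of the pentose phosphate pathway, fell in both (log2 -1.38 ± 0.062 SE and -1.002 ± 0.061 SE). Osgin1 fell in both as well (log2 -1.06 ± 0.074 SE and -0.95 ± 0.074 SE). The exporter gene Abcc4 fell in the EV-proficient (log2 -1.30 ± 0.078 SE) and rose in the EV-deficient cells (0.27 ± 0.076 SE) as labelled, but with the exchange it fell in both (-0.65 and -0.38, average -0.51). Gstm1 has close relatives in the genome, and how reads shared with them were counted is not stated.

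Of the glutathione and cystine genes, 5 of 11 tested were higher and 3 lower in the EV-proficient cells (median log2 0.70), and 3 of 11 tested were higher and 6 lower in the EV-deficient cells (median -0.37). Cth, which makes cysteine from cystathionine, went from 10.6 ± 1.28 to 43.9 ± 4.88 CPM in the EV-proficient and from 31.4 ± 1.69 to 11.9 ± 1.48 CPM in the EV-deficient cells (SD, n = 3 each). It thus rose in the former (log2 2.05 ± 0.11 SE) and fell in the latter (-1.40 ± 0.11 SE), high where the dNGFR row was low. With the exchange its values were 0.17 (not called) and 0.48, and the average was 0.33. Chac1, which degrades glutathione, likewise rose in the EV-proficient (log2 1.02 ± 0.10 SE) and fell in the EV-deficient cells (-0.50 ± 0.099 SE) as labelled, but with the exchange its values were 0.061 (not called) and 0.46, and the average was 0.26. The glutathione synthetase gene Gss fell in both (log2 -0.36 ± 0.088 SE and -0.37 ± 0.087 SE).

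Of the other peroxide and superoxide enzymes, 2 of 15 tested were higher and 10 lower in the EV-proficient cells (median log2 -0.22) and 3 of 15 tested were higher and 11 lower in the EV-deficient cells (median -0.42). The mitochondrial thioredoxin gene Txn2 (log2 -0.89 ± 0.075 SE and -1.03 ± 0.075 SE) and Glrx5 (-0.76 ± 0.11 SE and -1.20 ± 0.11 SE), needed for iron-sulphur clusters, had the largest falls within this list at 5 CPM or more. The peroxiredoxin gene Prdx5 rose in both (log2 0.35 ± 0.070 SE and 0.18 ± 0.070 SE; with the exchange 0.13 (not called) and 0.41, average 0.27). Glrx2 rose in the EV-proficient cells (log2 0.37 ± 0.091 SE) and was at 0.14 ± 0.089 SE (not called) in the EV-deficient cells. Prdx4 (log2 -0.50 ± 0.064 SE and 0.31 ± 0.063 SE) and Gpx8 (-0.22 ± 0.074 SE and 0.31 ± 0.074 SE) fell in the EV-proficient and rose in the EV-deficient cells as labelled. With the exchange the values were -0.14 (not called) and -0.050 (not called) for Prdx4 and 0.026 (not called) and 0.070 (not called) for Gpx8, and the averages were -0.096 and 0.048 (neither called). Mitochondrial genes took 0.550 to 0.720% and 0.581 to 0.729% in the DMSO groups and 0.846 to 0.907% and 1.07 to 1.45% of counts under paclitaxel, and the part of this share in these results was not tested.

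Of the genes of ferroptosis, iron and lipid handling, 10 of 27 tested were higher and 14 lower in the EV-proficient cells (median log2 -0.41), and 8 of 27 tested were higher and 13 lower in the EV-deficient cells (median -0.14). The iron importer Tfrc, the transferrin receptor, went from 618 ± 48.6 to 230.5 ± 15.2 CPM and from 596 ± 27.2 to 232 ± 53.4 CPM (SD, n = 3 each; log2 -1.42 ± 0.11 SE and -1.36 ± 0.11 SE). The iron exporter Slc40a1 rose from 11.8 ± 0.697 to 27.2 ± 1.94 CPM and from 9.72 ± 0.894 to 23.1 ± 1.96 CPM (SD, n = 3 each; log2 1.21 ± 0.099 SE and 1.25 ± 0.099 SE). Gch1, of tetrahydrobiopterin synthesis (log2 0.86 ± 0.14 SE and 0.78 ± 0.14 SE), and Sat1, which acetylates polyamines (0.40 ± 0.078 SE and 1.19 ± 0.078 SE), rose in both. Dhodh, a mitochondrial enzyme that reduces ubiquinone (log2 -0.88 ± 0.11 SE and -1.21 ± 0.11 SE), and Ptgs2, the inducible cyclooxygenase (-0.65 ± 0.080 SE and -1.72 ± 0.082 SE), fell in both. With the exchange, the listed genes called in the EV-proficient and then the EV-deficient cells were 6 higher and 3 lower, then 5 higher and 3 lower, for NRF2 control. The shares of all genes with the exchange were 32.6% higher and 28.8% lower (61.4% in either direction) in the EV-proficient cells, and 30.1% and 26.8% (56.9% in either direction) in the EV-deficient cells. The listed genes called with it were 14 higher and 10 lower, then 13 higher and 12 lower, for other NRF2 targets. For glutathione and cystine they were 3 higher and 3 lower, then 4 higher and 2 lower. For peroxide and superoxide enzymes they were 1 higher and 11 lower, then 1 higher and 9 lower, and for ferroptosis, iron and lipid 10 higher and 13 lower, then 7 higher and 15 lower. The largest edgeR adjusted p, as labelled, of the called changes named from the 5 lists was 0.0492, that of Btrc in the EV-deficient cells.

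**Figure D5:**
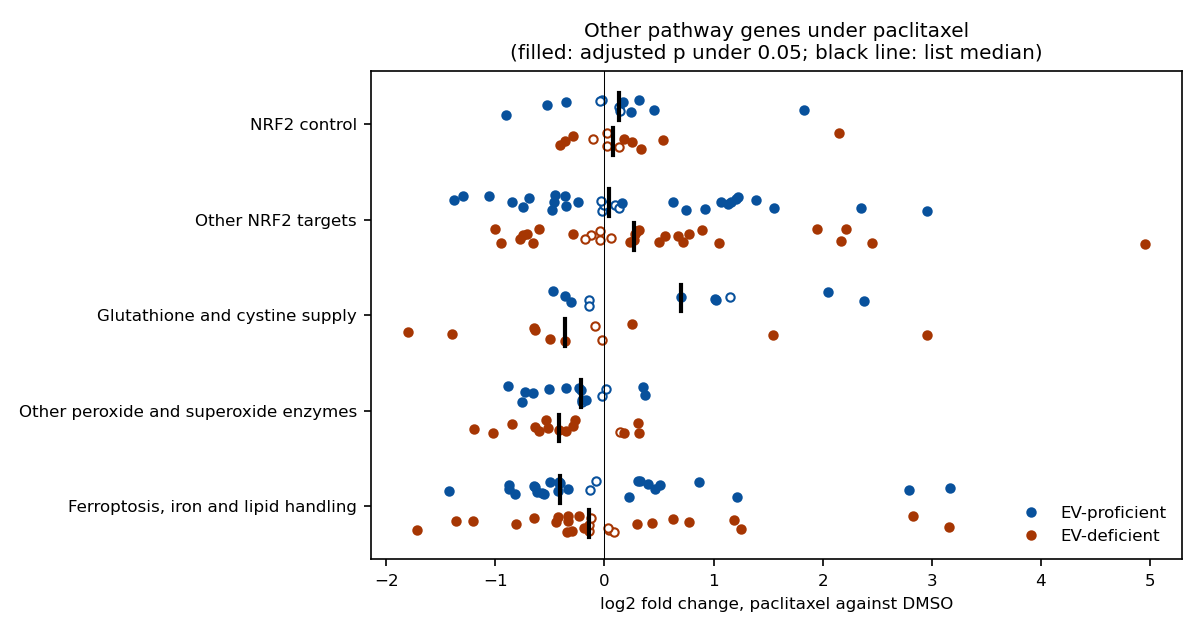
Log2 fold change under paclitaxel of the 95 tested genes of the 5 lists, EV-proficient above and EV-deficient below in each row. Filled circles have an adjusted p under 0.05 and black lines are list medians. The peroxide and superoxide list lies mostly below 0 in both, and the median of the glutathione and cystine list changes side as labelled, though not with the EV labels exchanged in the paclitaxel libraries (-0.016 and -0.032).

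Likeness of pattern was measured as the root mean square difference of log2 group means over the 4 groups, after each gene's own mean was subtracted. Among 9876 other genes at 5 CPM or more, those closest to Slc7a11 were Nxpe3 (0.0315), Neu1 (0.0315) and Creg1 (0.0321). Those closest to Hmox1 were Rabl3 (0.0832), Nop10 (0.105) and Msra (0.106), and those closest to Nqo1 were Ephb3 (0.0489), Cand2 (0.0590) and Afap1l2 (0.0805). The 0.5 CPM added before taking logs narrows the range of Nqo1, at 0.255 to 1.58 CPM, so these genes are close to its narrowed pattern. Among the members, Nfe2l2 lay closest to Gpx4 (0.0829) and then to Gclc (0.142) and Acsl4 (0.146). The other pairs as close as Gclm and Srxn1 (0.185) were Txnrd1 and Srxn1 (0.147), Gpx4 and Acsl4 (0.167), Gclc and Slc7a11 (0.181) and Gclc and Gpx4 (0.182). The measure is not scaled to the size of the changes, so genes that changed little lie close whatever their directions. Gpx4 and Acsl4, for example, had paclitaxel effects of 0.20 and -0.23 in the EV-proficient cells.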

How the data were processed

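The authors deposited a table of whole read counts per Ensembl gene, not normalized. Poly(A) RNA was selected and the library kit keeps strand, per the labels' protocols. STAR 2.5.0a and build GRCm38 are named in the submitters' processing notes; the counting program, annotation and use of strand are not given in the sources used here. Columns were matched to samples by their descriptions, and 0 columns belonged to other samples. The 2 rows added by the authors (gfp, at 0 counts, and dngfr) stayed out of library sizes and tests.

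The tests used edgeR 4.0.16 (R 4.3.3): filterByExpr on the 4 groups (minimum count 10), trimmed mean of M values scaling, and 1 quasi-likelihood fit of group means to all 12 libraries, with Benjamini-Hochberg adjustment over all 18108 genes and a threshold of 0.05. SE was taken from the log2 fold change and the F statistic. Members and lists were chosen with earlier results of these data known. All members are named; of each list, at most the 2 highest and 2 lowest called log2 fold changes per label at a mean of 5 CPM or more, of which 1 gene is not reported here. Replicate pairs differed by more than sampling noise (chi-square per degree of freedom 4.20 to 31.1). Alternatives were scaling by medians of ratios or upper quartiles, DESeq2 1.42.0, no filter, limma-voom (limma 3.58.1), at least 1 CPM in 3 libraries, a replicate block, fits to the compared groups alone, fits without each library and, added after the data were seen, EV labels exchanged in the paclitaxel libraries. The fits were tested on simulated counts. Positions and exon lengths are from GENCODE M21, on the build the notes name. Likeness used log2(CPM + 0.5). Motifs were searched in the 250 bases upstream of each start, not in the whole window, so that no UTR was read. The averaged effect, the ratios and 2 of the motifs were added after the data were seen.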

Additional observations from a re-analysis of the deposited data

Results flagged for a closer look

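The paclitaxel effect of 5 members differed between the EV labels by the interaction test. As EV-deficient minus EV-proficient on the log2 scale, the difference was -4.12 ± 0.50 SE, edgeR adjusted p 9.48e-07 for Nqo1, -0.41 ± 0.073 SE, edgeR adjusted p 9.69e-05 for Txnrd1 and -0.48 ± 0.11 SE, edgeR adjusted p 0.00165 for Slc7a11. It was 0.43 ± 0.088 SE, edgeR adjusted p 0.00041 for Gclm and 0.53 ± 0.098 SE, edgeR adjusted p 0.000165 for Acsl4. As labelled, these 5 calls were made in the other fits run for the interaction, each of the 12 without 1 library included, and 40.7% of all genes passed the same test. They rest on the EV labels, which the dNGFR row and the second principal component put in doubt. With the labels exchanged in the paclitaxel libraries the differences were -1.10 ± 0.50 SE, edgeR adjusted p 0.175 for Nqo1, -0.0023 ± 0.073 SE, edgeR adjusted p 0.991 for Txnrd1, -0.44 ± 0.11 SE, edgeR adjusted p 0.017 for Slc7a11, -0.24 ± 0.088 SE, edgeR adjusted p 0.0843 for Gclm and -0.027 ± 0.098 SE, edgeR adjusted p 0.898 for Acsl4. Among these 5 only that of Slc7a11 was called. The exchange gives minus the sum of the EV-label differences as labelled, for Slc7a11 0.46 under DMSO and -0.018 under paclitaxel. It thus does not repeat the test as labelled, and exchanging the DMSO libraries instead turns the sign. As labelled, the effects had opposite signs for Nqo1 and Acsl4, and for the other 3 the sign was shared and the size differed. With the exchange both effects of Acsl4 were above 0 and not called.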

How the results depend on the processing

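The counts of members called moved by at most 2 in any alternative. Counts of members and of all genes stayed within 1.5 times, except that with the EV labels exchanged in the paclitaxel libraries the interaction was called for 3 members and 1739 genes, against 5 and 7370. Members called under paclitaxel were 9 in the EV-proficient (8 to 9 without 1 library) and 8 in the EV-deficient cells (7 to 8). With that exchange the direction turned for Acsl4 in the EV-proficient (0.052), Nfe2l2 (-0.049) and Gclc (-0.088) in the EV-deficient cells, and for the interactions of Hmox1 (-0.76), Gclm (-0.24), Gpx4 (0.050) and Acsl4 (-0.027). In the other alternatives no called member changed direction, and sign changes were limited to members that were not called. With median-of-ratios scaling these were Gpx4 between labels under DMSO (-0.0018), Slc7a11 between labels under paclitaxel (0.0024) and the Nfe2l2 interaction (0.029), and DESeq2 gave -0.0018, 0.0024 and 0.030. Upper-quartile scaling gave -0.0071, 0.077 and 0.11, and for Srxn1 and Gpx4 between labels under paclitaxel 0.0040 and 0.025, and for the Gpx4 interaction 0.032. The filter of 1 CPM gave 0.022 for Slc7a11 and 0.037 for Nfe2l2, and only the groups compared gave -0.012 for Gpx4 and 0.0079 for Slc7a11. Without 1 library these ran from -0.020 to 0.069 (Gpx4), -0.050 to 0.025 (Slc7a11) and -0.051 to 0.061 (Nfe2l2), and the averaged Acsl4 effect from -0.034 to 0.044. The cause was not tested.

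Upper-quartile scaling moved the median of all genes by 0.12 (log2) in the averaged paclitaxel effect and in the interaction, and by 0.18 in the EV-deficient cells. In the average it called Nfe2l2 (0.19) and Acsl4 (0.16) at a median of 0.19. It also called Nfe2l2 between labels under paclitaxel (0.20), as did the filter of 1 CPM (0.15), which called its averaged effect too (0.10). Replicate numbers are shared between groups, but same-numbered libraries did not deviate together (18 correlations from -0.0812 to 0.0970), and 5 of 12 libraries correlated best with their own number. With the replicate block, members called were 9, 8, 6, 6 and 5 in the 5 planned comparisons, as without it, and 10520, 11363, 4258, 6858 and 7386 genes were called. The Gclc to Gclm change ran from 0.90 to 0.95 (log2) without 1 library. Among the members, depth limits Nqo1 most, with 8 to 116 counts a library.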

Other observations

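Some genes of the lists were singled out after their values were seen. The ferritin chains went opposite ways under paclitaxel: Fth1 rose from 1428 ± 36.4 to 2201 ± 52.7 CPM and from 1394 ± 14.3 to 2595 ± 246 CPM (SD, n = 3 each; log2 0.62 ± 0.062 SE and 0.90 ± 0.062 SE), while Ftl1 fell (log2 -0.36 ± 0.080 SE and -0.29 ± 0.079 SE; with the EV labels exchanged in the paclitaxel libraries -0.081 (not called) and -0.57, average -0.33). Ferritin genes have many processed copies in the genome, and how shared reads were counted is not stated. The lipoxygenase genes Alox12 (log2 3.17 ± 0.25 SE and 3.16 ± 0.25 SE) and Alox15 (2.79 ± 0.85 SE and 2.83 ± 0.82 SE) rose in the cells of both labels, from low levels. Alox12 went from 0.581 ± 0.212 to 5.24 ± 0.421 CPM in the EV-proficient and from 0.470 ± 0.0732 to 4.24 ± 0.630 CPM in the EV-deficient cells. Bach2, a relative of Bach1, also rose in both (log2 1.83 ± 0.23 SE and 2.15 ± 0.23 SE). Cbs, which acts before Cth in cysteine synthesis, rose in the EV-proficient and fell in the EV-deficient cells (log2 1.02 ± 0.22 SE and -1.80 ± 0.22 SE) as labelled. With the EV labels exchanged in the paclitaxel libraries its values were -0.32 (not called) and -0.46 (not called), and the averaged effect was -0.39. Txn1 fell in both (log2 -0.84 ± 0.074 SE and -0.66 ± 0.074 SE), as did its reductase gene Txnrd1. By edgeR the highest adjusted p of the changes within an EV label named here, as labelled, was 0.00747, that of Alox15 in the EV-proficient cells.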
